A study of Homo sapiens with 6 samples.

Results

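The family of miR-148 and miR-152 was followed in small RNA libraries of A549 cells, through 5 mature miRNAs of 2588 in the deposited table: hsa-miR-148a-3p, hsa-miR-148b-3p and hsa-miR-152-3p, and the opposite strands hsa-miR-148a-5p and hsa-miR-148b-5p. They were taken by name, and each has 1 row in the table. A549 is an established line from a human lung adenocarcinoma. The Ctrl group holds 3 libraries of parental A549 cells, and the MIR21-KO group holds 3 libraries of A549 cells in which CRISPR/Cas9 with a pair of guides had removed the MIR21 locus. All cells were harvested 48 h after seeding. The knockout lines were raised from single sorted cells, and the labels do not tell how many clones the 3 libraries represent, so the deletion and the choice of clone cannot be told apart. The study's methods speak of biological triplicates in general, and the labels do not say how these replicates were grown. The p-values therefore set a difference between groups against the spread between libraries, whatever its source.

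A miRNA guides Argonaute proteins to mRNAs that pair with its seed, the bases near its 5′ end, and the bound mRNA is degraded or translated less. One strand of the precursor hairpin is usually loaded and the other is mostly discarded. The 3p strands of this family are the loaded ones, and they are best known for repressing DNMT1, the enzyme that copies DNA methylation after replication. In many tumors the genes MIR148A and MIR152 are themselves silenced by DNA methylation, and members of the family are counted among tumor-suppressive miRNAs.

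The 3p sequences are shown because the shared seed defines the family and because the bases that tell the members apart decide how reads are assigned to them (RefSeq, GRCh38.p14, 4 of the 5 members matched; capitals mark the seed, bases 2 to 8).
miR-148a-3p: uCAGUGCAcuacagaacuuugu
miR-148b-3p: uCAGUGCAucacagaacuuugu
miR-152-3p: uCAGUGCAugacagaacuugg
miR-148b-5p: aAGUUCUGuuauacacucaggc
The seed CAGUGCA is found in 3 of 2370 mature human miRNAs of the RefSeq table, which are the 3p members themselves. Counted from the 5′ end, miR-148a-3p and miR-148b-3p differ by C9U and U10C over 22 positions. miR-148a-3p and miR-152-3p differ by C9U, U10G and U20G over the 21 positions they share, and miR-148b-3p and miR-152-3p by C10G and U20G. A read must therefore reach past the seed to be assigned, and the authors' handling of reads that fit several loci is not given in the sources used here.

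The hairpins of the 2 loci that differed most between libraries are shown with the 3p strand in capitals, near the 3′ end of each precursor.
MIR148A: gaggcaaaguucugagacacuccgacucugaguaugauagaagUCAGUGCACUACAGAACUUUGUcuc
MIR152: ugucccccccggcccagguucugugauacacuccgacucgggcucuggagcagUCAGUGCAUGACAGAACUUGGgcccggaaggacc
MIR148A lies on chromosome 7 from 25949919 to 25949986 on the minus strand, where GENCODE 29 (GRCh38) has no other gene. MIR148B lies on chromosome 12 from 54337216 to 54337314 on the plus strand, in an intron of COPZ1 and within the overlapping non-coding gene AC078778.2. MIR152 lies on chromosome 17 from 48037161 to 48037247 on the minus strand, in an intron of COPZ2. COPZ1 and COPZ2 are paralogs that encode subunits of the COPI vesicle coat, and both miRNAs are on the strand of their host gene.

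The letters that pair with the seed, TGCACTG, were searched in the sense strand of the longest annotated 3′ UTR of each protein-coding gene in GENCODE 29. They are present in 2655 of 19108 genes (13.9%). DNMT1 has 1 match in a 3′ UTR of 321 bases, shown here as the site through which the family is known to act (GRCh38, chr19:10133612-10133633, minus strand; capitals mark the match).
DNMT1: aggaatccccaacaTGCACTGa
The letters are not in the longest 3′ UTRs of DNMT3A and DNMT3B, which encode the de novo DNA methyltransferases, nor in that of CDKN1B, which encodes the cell cycle inhibitor p27. Coding sequences and other transcripts of these genes were not searched, so an absent match does not show that the family leaves a gene alone. A match is a description of the sequence, and mRNA levels were not measured in these libraries.

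The deposited values are counts per 1000000 scaled by TMM, which assumes that most miRNAs do not change between libraries. The libraries held 5577287 to 9768152 miRNA reads. The deletion showed in every library: miR-21-5p had at least 4232696 reads in each Ctrl library and at most 2087 in each MIR21-KO library. On the first principal component of 325 miRNAs, computed without the family and without miR-21 and holding 76.5% of the variance, Ctrl replicates 1 and 2 lay with MIR21-KO replicate 3 (set A), and Ctrl replicate 3 lay with MIR21-KO replicates 1 and 2 (set B). The sets were read from the data and the labels give no batch that matches them. The study's methods name a NEXTflex kit or Novogene for preparing small RNA libraries, and Dresden or Novogene for sequencing. They do not say which library took which route, and whether the sets follow these routes was not tested. Results are therefore given over all libraries, within the sets, with a term for the sets, and for replicates 1 and 2 of each group alone.

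hsa-miR-152-3p was the member whose groups did not overlap. Its value was 701, 551 and 766 in Ctrl replicates 1, 2 and 3, and 2604, 2918 and 2343 in MIR21-KO replicates 1, 2 and 3. All MIR21-KO libraries lay above all Ctrl libraries, and the lowest MIR21-KO value was 3.06 times the highest Ctrl value. Such a separation upward was found in 9.56% of the 607 miRNAs tested, and the reverse, which no member showed, in 6.59%. Ctrl had a mean of 673 ± 110 (SD, n = 3), and MIR21-KO one of 2621 ± 288 (SD, n = 3), a ratio of 3.90. These values rest on 2039 to 5428 reads per Ctrl library and 18020 to 40458 reads per MIR21-KO library, so counting error was small beside the spread of replicates.

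The log2 fold change of miR-152-3p was 1.97 with a standard error of 0.37 in limma, fitted on log2(value + 1) over the 607 miRNAs that reached a value of 1 in 3 or more of the 6 libraries, among them all 5 members. Its adjusted p was 0.0750 (limma with Benjamini-Hochberg adjustment) and its unadjusted p was 9.22e-04, so it did not pass the threshold of 0.05. It stood in the fifth place of 607 by size of the rise, and 0.824% of the miRNAs rose at least as much. In the same fit 0% of the miRNAs were called higher and 0.824% lower, and of the 5 family members 0 were called in either direction by limma, with 1 (miR-152-3p, higher) at an unadjusted p under 0.05, against 11.2% of all miRNAs in either direction and 6.75% higher. edgeR called 0 members on the recovered reads (adjusted p = 0.0879 for miR-152-3p, quasi-likelihood test; 0% of all miRNAs higher and 1.15% lower). DESeq2 called miR-152-3p higher (log2 fold change 1.72, adjusted p = 4.71e-05) among 0.659% of the miRNAs, and 0 members lower, against 3.13% of all. Scaled to the total of all reads in place of TMM, where 32.3% of all miRNAs were called higher by limma, the calls were miR-152-3p (3.35) and miR-148b-3p (1.79).

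The difference in miR-152-3p was nearly the same in both sets of libraries. Between MIR21-KO and Ctrl it was 1.91 on the log2 scale in set A and 1.85 in set B, where each set holds 1 library of one condition and 2 of the other. A limma fit with a term for the sets gave 1.88 (standard error 0.22) with an adjusted p of 5.11e-05. In that fit 11.7% of miRNAs were called higher and 6.43% lower, and of the members 1 and 0. edgeR with the same term gave 1.84 with an adjusted p of 4.74e-05 and called 8.9% of miRNAs higher and 6.26% lower, again with 1 member and 0. Because the same table defined the sets, these p-values are not independent of it. With replicates 1 and 2 of each group alone, limma gave 2.15 (standard error 0.23) with an adjusted p of 6.32e-04, and called 37.7% of miRNAs higher and 21.4% lower. In that fit the Ctrl libraries are of set A and the MIR21-KO libraries of set B, so condition and set cannot be told apart.

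**Figure D1:**
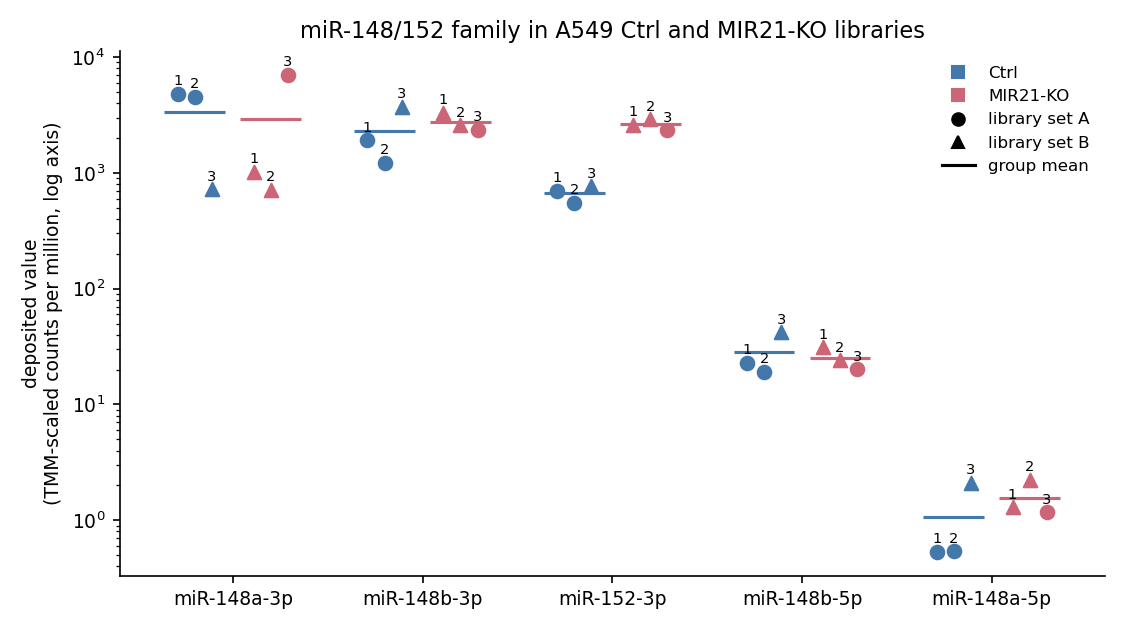
Deposited value (TMM-scaled counts per 1000000, log axis) of each family member in every library, numbered by replicate, with color for the condition, circles for set A, triangles for set B and a line for each group mean. miR-152-3p parts by condition (551 to 766 in Ctrl, 2343 to 2918 in MIR21-KO), whereas miR-148a-3p parts by library set.

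hsa-miR-148a-3p, the member with the highest mean over the 6 libraries (3150), showed no such separation. Its value was 4830, 4562 and 719 in Ctrl replicates 1, 2 and 3, and 1021, 715 and 7051 in MIR21-KO replicates 1, 2 and 3. Both groups thus held high and low libraries, with 4562 to 7051 in set A and 715 to 1021 in set B, a ratio of means of 6.70. All set A libraries lay above all set B libraries, as for 22.1% of the miRNAs tested. Ctrl had a mean of 3370 ± 2300 (SD, n = 3) and MIR21-KO one of 2929 ± 3573 (SD, n = 3), where the SD of MIR21-KO exceeded its mean.

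Over all libraries the log2 fold change of miR-148a-3p was -0.54 with a standard error of 1.05 (adjusted p = 0.832 from limma). Within the sets, MIR21-KO lay above Ctrl by 0.59 on the log2 scale in set A and by 0.25 in set B, and the set term gave 0.42 (standard error 0.23) with an adjusted p of 0.233 from limma. With replicates 1 and 2 of each group alone, all Ctrl libraries are of set A and all MIR21-KO libraries of set B. That fit gave -2.46 (standard error 0.25) with an adjusted p of 5.34e-04 from limma, and condition and set cannot be told apart there.

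hsa-miR-148b-3p varied less and in the opposite sense to miR-148a-3p across the sets. Its value was 1910, 1222 and 3720 in Ctrl replicates 1, 2 and 3, and 3303, 2593 and 2356 in MIR21-KO replicates 1, 2 and 3. The MIR21-KO libraries lay within the range of the Ctrl libraries. The set B libraries (2593 to 3720) all lay above the set A libraries (1222 to 2356), as for 35.1% of the miRNAs tested. The log2 fold change between the conditions was 0.41 with a standard error of 0.49 (adjusted p = 0.779 from limma), and within the sets the difference turned from 0.62 in set A to -0.35 in set B.

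The opposite strands were scarce. hsa-miR-148b-5p had values of 23.0, 19.2 and 42.3 in the Ctrl libraries and of 31.3, 24.2 and 20.2 in the MIR21-KO libraries, in order of replicates, from 71 to 435 reads per library. The groups overlapped (log2 fold change -0.10, standard error 0.47, adjusted p = 0.938 from limma), and the libraries parted by set as those of miR-148b-3p did, from 19.2 to 23.0 in set A and from 24.2 to 42.3 in set B. hsa-miR-148a-5p was read 2, 2 and 15 times in the Ctrl libraries and 18, 31 and 9 times in the MIR21-KO libraries. Its values of 0.534, 0.541 and 2.12 for Ctrl and of 1.30, 2.24 and 1.17 for MIR21-KO overlapped as well (log2 fold change 0.38, standard error 0.40, adjusted p = 0.725 from limma). These are few reads, and its fitted fold change depends on the pseudocount. With replicates 1 and 2 of each group alone, where condition and set cannot be told apart, it was called at 0.83 (adjusted p = 0.0386 from limma). It too was higher in every set B library (1.30 to 2.24) than in every set A library (0.534 to 1.17). Such a separation by set, which miR-148b-5p also showed, was found in 35.1% of the miRNAs tested.

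In a limma fit with terms for the condition and the set, the 4 members from MIR148A and MIR148B had condition coefficients from -0.33 to 0.42 on the log2 scale, and that of miR-152-3p was 1.88. The quartiles over all 607 miRNAs were -0.31 and 0.52. For the difference of set B minus set A, miR-148a-3p stood at -2.87 and the other members between 0.27 and 0.80, where the lower quartile over all miRNAs was -0.66 and the median 0.20. The set difference of miR-152-3p was the smallest of the family in size, at 0.27.

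**Figure D2:**
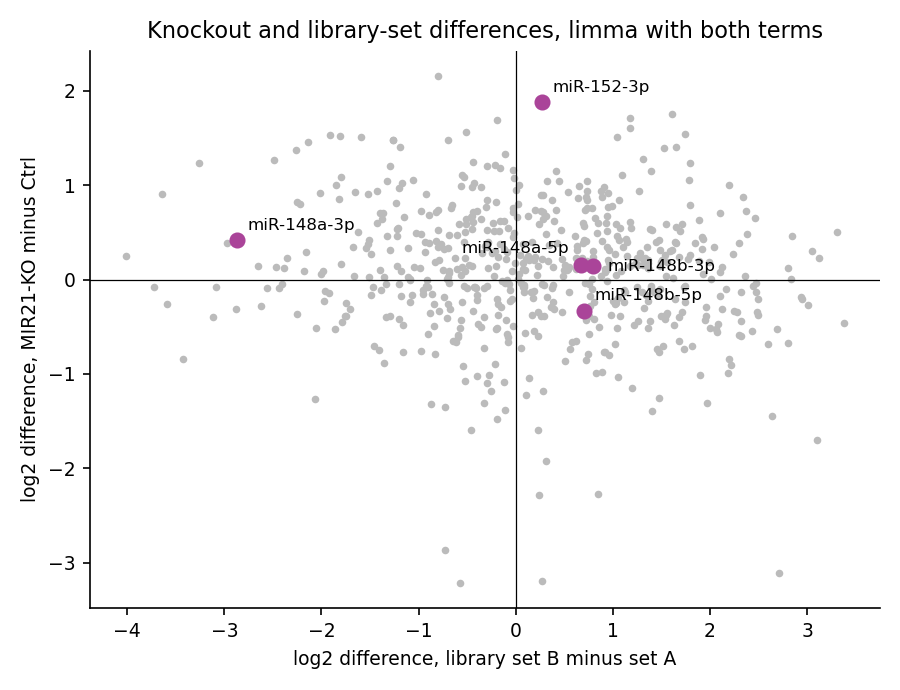
Each point is a miRNA of the 607 tested except miR-21-5p and miR-21-3p, with its log2 difference between library sets (set B minus set A) on the x axis and between conditions (MIR21-KO minus Ctrl) on the y axis, from a limma fit with both terms. miR-152-3p stands high on the y axis (1.88) near the middle of the x axis (0.27), and miR-148a-3p stands far left (-2.87).

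**Figure D3:**
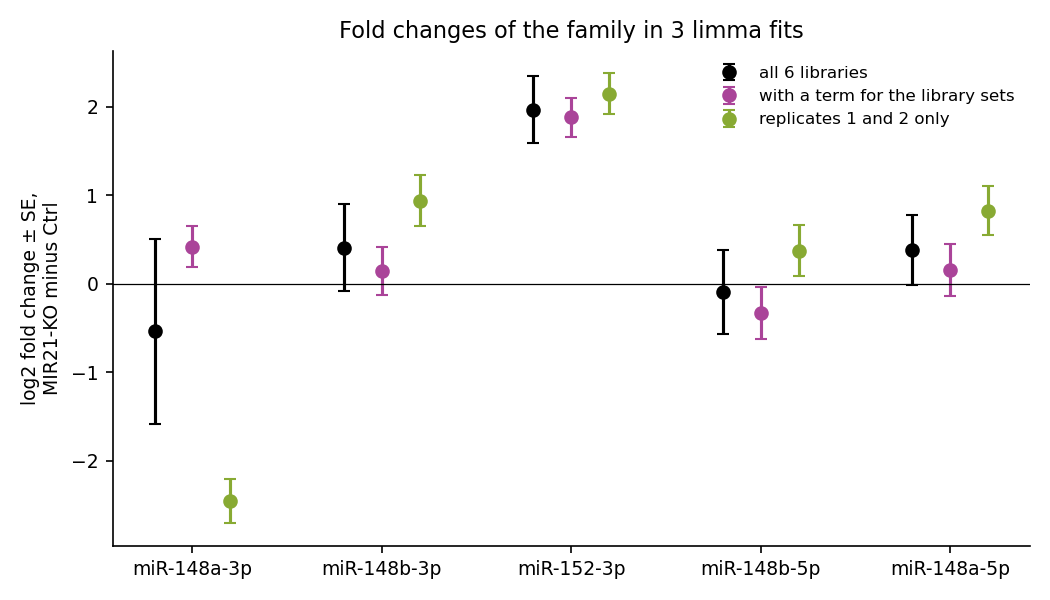
Log2 fold change of each member (MIR21-KO minus Ctrl) with its standard error in 3 limma fits: all 6 libraries, all 6 with a term for the library sets, and replicates 1 and 2 of each group only. miR-152-3p keeps a value of 1.88 to 2.15, whereas miR-148a-3p moves from -2.46 to 0.42 with the libraries and terms used.

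The make-up of the shared-seed reads does not depend on the scaling of the libraries. miR-152-3p supplied 9.43%, 8.70% and 14.7% of the reads of the 3 seed-sharing members in Ctrl replicates 1, 2 and 3, and 37.6%, 46.9% and 19.9% in MIR21-KO replicates 1, 2 and 3. Every MIR21-KO library lay above every Ctrl library. In set A the share was 19.9% in MIR21-KO against 9.43% and 8.70% in Ctrl, and in set B 37.6% and 46.9% against 14.7%. Ctrl had a mean share of 10.9% ± 3.28 (SD, n = 3), and MIR21-KO one of 34.8% ± 13.7 (SD, n = 3), a difference of 23.8 percentage points. Most Ctrl libraries are of set A and most MIR21-KO libraries of set B, so this difference mixes condition and set. The two-sided exact permutation test gave p = 0.1, the smallest that 3 libraries against 3 allow, and 0.25 after adjustment over the 5 shares tested.

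miR-148a-3p supplied 64.9% and 72.0% of these reads in Ctrl replicates 1 and 2 and 60.0% in MIR21-KO replicate 3, but 13.8%, 14.7% and 11.5% in Ctrl replicate 3 and MIR21-KO replicates 1 and 2. Its share was thus high in every set A library and low in every set B library (exact permutation test between the conditions, two-sided p = 0.3). miR-148b-3p supplied 71.5% in Ctrl replicate 3, 47.7% and 41.6% in MIR21-KO replicates 1 and 2, and 19.3% to 25.7% in the set A libraries (exact permutation test between the conditions, two-sided p = 0.9). The most abundant member was accordingly miR-148a-3p in the set A libraries, miR-148b-3p in Ctrl replicate 3 and MIR21-KO replicate 1, and miR-152-3p in MIR21-KO replicate 2. In MIR21-KO replicate 3, miR-148b-3p (2356) and miR-152-3p (2343) were nearly level. Reads per miRNA can also differ with how well each sequence is ligated, which was not measured. The 95% Wilson intervals of the single shares, which cover counting error only, were at most 1.15 percentage points wide.

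**Figure D4:**
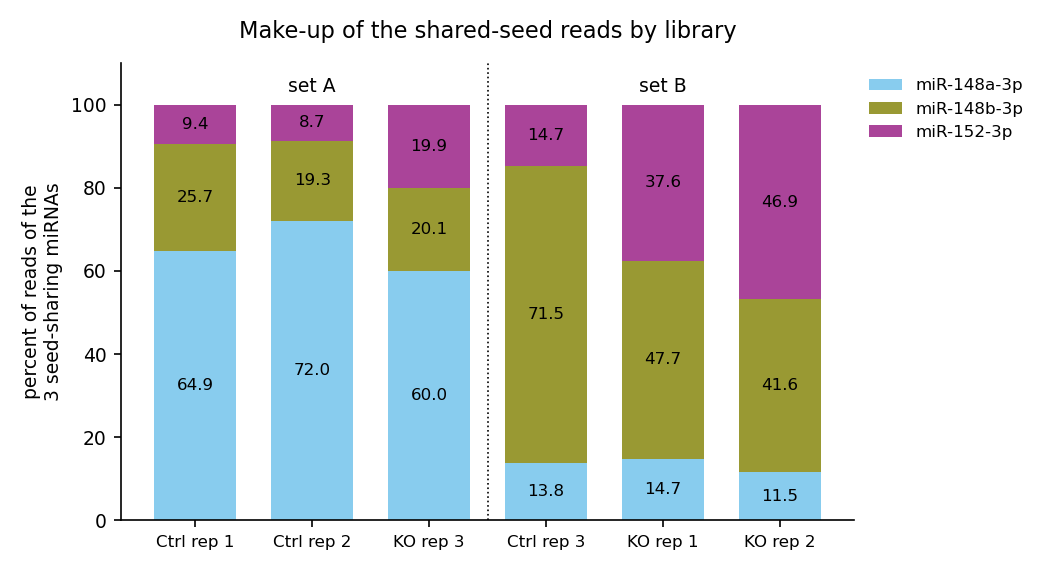
Percent of the reads of the 3 miRNAs with the seed CAGUGCA that each supplied in every library, ordered by library set. miR-148a-3p takes 60.0% to 72.0% in set A and 11.5% to 14.7% in set B, and within each set miR-152-3p takes more in MIR21-KO than in Ctrl.

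Summed over the 3p members, the deposited value was 7441, 6334 and 5205 in Ctrl replicates 1, 2 and 3 and 6928, 6226 and 11750 in MIR21-KO replicates 1, 2 and 3. The groups overlapped, and the MIR21-KO mean was 131% of that of Ctrl. Without MIR21-KO replicate 3, which held the highest miR-148a-3p value, it was 104%, and with replicates 1 and 2 of each group alone it was 95.5%. The sum is a description and was not tested.

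The share of the discarded strand was compared within each locus. For MIR148B the 5p strand made up 1.19%, 1.55% and 1.13% of the reads of both strands in Ctrl replicates 1, 2 and 3, and 0.940%, 0.923% and 0.848% in MIR21-KO. The 3 shares in MIR21-KO were smaller than each of the 3 in Ctrl, with means of 1.29% ± 0.227 (SD, n = 3) and 0.904% ± 0.0488 (SD, n = 3) and a two-sided exact permutation p = 0.1, the smallest possible, or 0.25 adjusted over the 5 shares. The 95% Wilson interval of Ctrl replicate 2 (1.23% to 1.95%) overlapped that of no MIR21-KO library. The interval of Ctrl replicate 1 (0.963% to 1.47%) overlapped those of all MIR21-KO libraries, and that of Ctrl replicate 3 (1.01% to 1.26%) those of MIR21-KO replicates 1 and 2 but not 3. For MIR148A the 5p strand made up 0.0111%, 0.0118% and 0.293% of the Ctrl libraries' reads of both strands, and 0.127%, 0.312% and 0.0166% of those of MIR21-KO (exact permutation test, two-sided p = 0.5). The set B libraries lay at 0.127% or above and the set A libraries at 0.0166% or below, with Wilson intervals that did not overlap between the sets.

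**Figure D5:**
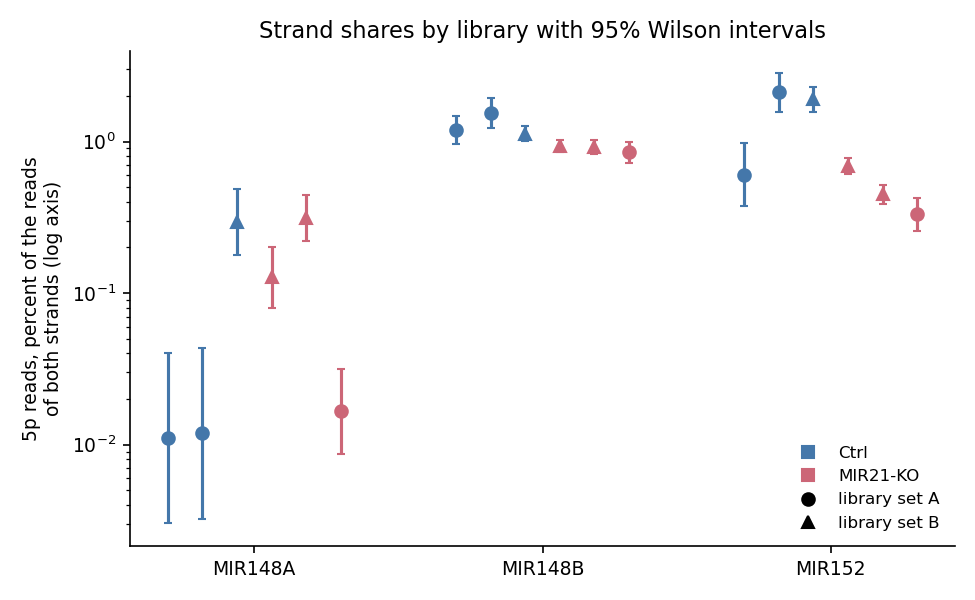
Share of 5p reads among the reads of both strands of MIR148A, MIR148B and MIR152 in every library (log axis), with 95% Wilson intervals, colored by condition and shaped by library set. For MIR148A the set B triangles lie above the set A circles, and for MIR148B the MIR21-KO libraries (0.848% to 0.940%) lie below the Ctrl libraries (1.13% to 1.55%). Such separations were not counted over other hairpins.

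The miRNAs most like each 3p member over the 6 libraries were found among 328 others with a mean value of at least 10, by Pearson's r of log2(value + 1). The libraries share their scaling factors and their sets, so these are descriptions. For miR-148a-3p they were miR-30a-3p (r = 0.99), miR-30e-3p (0.99) and miR-431-3p (0.98), and for miR-148b-3p they were miR-92b-3p (0.99), miR-30c-5p (0.97) and miR-656-3p (0.96). For miR-152-3p they were miR-135b-5p (0.96), miR-542-3p (0.96) and miR-382-3p (0.96). miR-135b-5p, the closest of these, had 10.3 to 10.9 in the Ctrl libraries and 30.3 to 42.9 in the MIR21-KO libraries. Among the members themselves, r was -0.72 between miR-148a-3p and miR-148b-3p, -0.32 between miR-148a-3p and miR-152-3p, and 0.50 between miR-148b-3p and miR-152-3p.

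Other miRNAs known to act on DNA methyltransferases or on the histone methyltransferase EZH2 were read from a list of 10: miR-29a-3p, miR-29b-3p and miR-29c-3p and miR-143-3p, which target de novo methyltransferases, miR-185-5p, miR-342-3p and miR-126-3p, reported for DNMT1, and miR-101-3p, miR-26a-5p and miR-26b-5p, which target EZH2. All 10 were tested and 0 passed an adjusted p of 0.05 in limma, with 0 at an unadjusted p under 0.05. Their median log2 fold change, over all libraries and without the set term, was 0.52, against 0.24 for all 607 miRNAs. The sets are spread unevenly over the conditions, so these medians mix condition and set. With the set term in limma, the condition coefficients were -0.07, -0.37 and -0.42 for miR-29a-3p, miR-29b-3p and miR-29c-3p, and 0.94 for miR-143-3p. They were 0.74, 0.59 and -0.45 for miR-185-5p, miR-342-3p and miR-126-3p, and -0.03, 0.48 and 0.54 for miR-101-3p, miR-26a-5p and miR-26b-5p. The median over all miRNAs in that fit was 0.12. The most abundant were miR-26a-5p (4097 in Ctrl, 5856 in MIR21-KO, log2 fold change 0.59), miR-101-3p (3409 and 3245, -0.07) and miR-126-3p (2655 and 1312, -1.04). All set A libraries of miR-126-3p lay above all set B libraries, as for 22.1% of the miRNAs tested. miR-26a-5p and miR-101-3p did not separate by set. In the limma fit with both terms, miR-126-3p had a condition coefficient of -0.45 and a difference of set B minus set A of -1.79. miR-185-5p was the member of the list whose MIR21-KO libraries all lay above all Ctrl libraries, 1 of 10 where 9.56% of all miRNAs tested did so, with means of 461 in Ctrl and 794 in MIR21-KO (log2 fold change 0.80, adjusted p = 0.538 from limma).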

How the data were processed

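Small RNA was sequenced from 3 Ctrl and 3 MIR21-KO libraries of A549 cells. The authors deposited a signal per mature miRNA and library, with their own fold changes, p-values and FDRs, which were not used. The submitters' processing notes list cutadapt 1.14, Bowtie2 2.3.2, SAMtools 1.5, featureCounts 1.5.3, edgeR 3.18.1 and hg38. In each library the lowest value above 0 was taken as what 1 read is worth, and dividing by it returned whole reads for 100% of values (tolerance 1e-06); TMM-scaled counts per 1000000 recomputed from these reads matched to within 3.55e-15. Rows of one name were summed.

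Under R 4.3.3, limma 3.58.1 with a mean-variance trend was fitted to log2(value + 1), two-sided, with Benjamini-Hochberg adjustment over 607 miRNAs. Count models on the recovered reads (edgeR 4.0.16, DESeq2 1.42.0) were alternatives, with other pseudocounts, filters and scalings, a replicate block and each library left out. The set term and the fit on replicates 1 and 2 alone were added after the data were seen. Scripts were tested on simulated data. DESeq2 gave no adjusted p for 7 miRNAs.

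Replicates differed beyond counting error (chi-square per degree of freedom from 159 to 3156). The members and lists were chosen with earlier results of these data known. The miRNAs named are the members, miR-21, miR-152-5p and the 3 most like each 3p member. From the list, those past the test and the 3 most abundant are given with values. miR-185-5p was named after its values were seen. The coefficients of the whole list with the set term were also added after the data were seen.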

Additional observations from a re-analysis of the deposited data

How the results depend on the processing

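Counting error was small for the 3p members and limits statements on miR-148a-5p, with 2 to 31 reads per library. miR-152-3p kept a positive fold change in all 20 alternatives, from 1.67 with median centring to 3.35 with scaling to the total, and its adjusted p over the 17 alternatives that were not added later ran from 4.71e-05 to 0.9505. It passed 0.05 in 2 of these (3.35 with scaling to the total, 1.72 with DESeq2) and in the 3 added after seeing the data (1.88 with the set term, 1.84 with edgeR and this term, 2.15 with replicates 1 and 2 only). The totals include miR-21-5p, which held 65.5% to 69.4% of the reads in the Ctrl libraries and at most 0.0254% in the MIR21-KO libraries. With scaling to the total, the median log2 fold change over all miRNAs moved from 0.24 to 1.34. It was 0.02 with miR-21 left out of the total, 0.10 under median-of-ratios size factors and -0.02 under median centring. The cause of a change between settings was not tested.

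The fold change of miR-148a-3p turned to 0.85 with scaling to the total, 0.42 under the set term and 0.39 in edgeR given this term, and was called at -2.46 with replicates 1 and 2 only. That of miR-148b-3p was called at 1.79 with scaling to the total and at 0.94 with replicates 1 and 2 only, and that of miR-148a-5p at 0.83 in the latter. That of miR-148b-5p turned to 1.23 with scaling to the total and 0.37 with replicates 1 and 2 only. When single libraries were left out, fold changes ran from -1.55 to 0.10 for miR-148a-3p (0.10 without MIR21-KO replicate 2), from 0.20 to 0.72 for miR-148a-5p, from 0.03 to 0.83 for miR-148b-3p, from -0.32 to 0.23 for miR-148b-5p (0.23 when Ctrl replicate 3 was left out, 0.05 when MIR21-KO replicate 3 was) and from 1.83 to 2.07 for miR-152-3p.

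The number of members called higher was 0, and 2 with scaling to the total, 1 each with DESeq2, the set term in limma and that in edgeR, and 3 with replicates 1 and 2 only, where 1 was called lower. Over all miRNAs, 0 were higher and 5 lower in limma (41 and 27 at an unadjusted p under 0.05). The number higher was 196 with scaling to the total, 4 in DESeq2, 71 for the set term, 54 for edgeR and that term and 229 with replicates 1 and 2 only. The number lower was 3 for a pseudocount of 10, 19 in DESeq2, 2 with the replicate block, 39 for the set term, 38 for edgeR and that term and 130 with replicates 1 and 2 only, and ran from 2 to 5 with each library left out. 

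The difference in the 5p share of MIR148A reads ran from -0.0338 to 0.140 percentage points with each library left out, and that in the share of miR-148b-3p from -12.1 to 13.98 points, being 13.98 without Ctrl replicate 3 and 22.2 with replicates 1 and 2 only. The summed value in MIR21-KO was 337% of Ctrl with scaling to the total, 104% to 147.6% with each library left out, and below Ctrl, at 95.5%, with replicates 1 and 2 only.

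Same-numbered libraries did not deviate together (r of deviations from the group means of -0.79, -0.60 and -0.88), but no same-numbered libraries share a set. Ctrl and MIR21-KO libraries of one set had r from 0.62 to 0.85. These correlations follow the sets, so they cannot tell whether the numbers pair the libraries. With the replicate block the fold change of miR-152-3p was 1.97 with an adjusted p of 0.9505 from limma, and it called 0 members.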

Other observations

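miR-152-5p, the opposite strand of MIR152, is not among the members, and it did not follow miR-152-3p. It had 16, 44 and 105 reads in Ctrl replicates 1, 2 and 3 and 252, 182 and 60 in MIR21-KO, with values of 4.27, 11.9 and 14.8 and of 18.2, 13.1 and 7.80. The groups overlapped (log2 fold change 0.38, standard error 0.56, adjusted p = 0.792 from limma). Within the sets the difference was 0.09 in set A and 0.06 in set B on the log2 scale, where that of miR-152-3p was 1.91 and 1.85. The libraries parted by set, from 4.27 to 11.9 in set A and from 13.1 to 18.2 in set B, as for 35.1% of the miRNAs tested.

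The share of 5p reads among the reads of both strands of MIR152, looked at after the values were seen and not tested, was 0.606%, 2.11% and 1.90% over Ctrl replicates 1, 2 and 3, and 0.692%, 0.448% and 0.332% over those of MIR21-KO. Ctrl replicate 1, with 16 reads of the 5p strand and a Wilson interval from 0.373% to 0.982%, lay among the MIR21-KO libraries.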
